A study of Canis lupus familiaris with 23 samples.

Results

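Expression of 8 genes of the bone morphogenetic protein (BMP) pathway was followed through dog skin and through organoids grown from it. The genes were the ligands BMP2, BMP4 and BMP7, the receptors BMPR1A and BMPR2, the decoy receptor BAMBI, and the target genes ID1 and ID2. They were picked by gene name, as ligands, receptors and targets of the pathway, from the 21414 gene entries of the count files. All 8 were listed in all 23 libraries, with ID2 standing under a provisional locus name that its gene ID tied to the symbol.

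BMPs are secreted proteins that bring type I and type II receptor kinases together. The type I kinase then phosphorylates the transcription factors SMAD1, SMAD5 and SMAD9, which enter the nucleus with SMAD4 and switch on genes of the ID family. Noggin is a secreted protein that binds BMPs and keeps them from their receptors. In mouse skin, BMPs made by and around the follicle are known to hold follicle stem cells at rest and to direct differentiation of the hair shaft.

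RNA from tissue and from bulk organoid cells was counted in 12 groups by a modified CEL-seq2 protocol, which reads transcripts from their 3′ ends. All organoids were collected at day 7. Organoids from hair follicles at passages 3 to 6 gave 2 libraries in each of 3 differentiation media, 1 lacking Noggin, R-Spondin-1 and Forskolin, 1 lacking Noggin and R-Spondin-1, and 1 labelled with no omission, called complete below. R-Spondin-1 strengthens Wnt signalling and Forskolin raises cAMP. The other organoids were in a medium that the labels leave unnamed, called expansion medium below, whose content of Noggin the labels do not give. Organoids from interfollicular epidermis, the skin surface between follicles, were grown there with a Tgf-beta inhibitor and gave 1 early library (passages 0 to 1) and 1 later library (passages 3 to 6). Follicle organoids with the inhibitor gave 3 early and 2 later libraries, and follicle organoids without it gave 2 early and 2 later libraries. Tissue gave 2 libraries of hair follicles, mixed from the anagen (growing) and telogen (resting) phases, 2 of interfollicular epidermis and 2 of whole skin. The inhibitor is not named in the labels, and the labels give neither a breed nor an age for the dogs. They also do not say whether replicates came from separate dogs or cultures, so p-values measure only the spread between these libraries, which may be technical.

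Total counts ran from 84439 in the second epidermis library to 4792577 in an early follicle organoid library with inhibitor. Levels are given in CPM, a count divided by the scaled total of its library. A count of 0 allowed up to 3 counts, which set against the plain library totals is 35.5 CPM in the shallowest library and 0.626 CPM in the deepest, for counting error only. The epidermis label was checked against markers. The summed level of 9 keratinocyte differentiation genes was 13506 to 17680 CPM in interfollicular epidermis libraries. It was 2898 to 3398 CPM in hair follicle libraries and 4927 to 5621 CPM in whole skin. Of 12 fibroblast and dermal papilla genes, all 12 were detected in interfollicular epidermis libraries, with a summed level of 1295 to 3736 CPM, against 4589 to 7602 CPM in hair follicle libraries and 3668 to 6399 CPM in whole skin. Follicle organoids in expansion medium had 68.8 to 522.6 CPM of the same genes, and organoids in the 3 differentiation media had 33.7 to 89.0 CPM. Organoids from interfollicular epidermis had 177 CPM (early) and 824 CPM (later), so that every organoid library was below every tissue library. In bulk RNA, fewer cells of a type and less RNA per cell cannot be told apart.

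**Figure D1:**
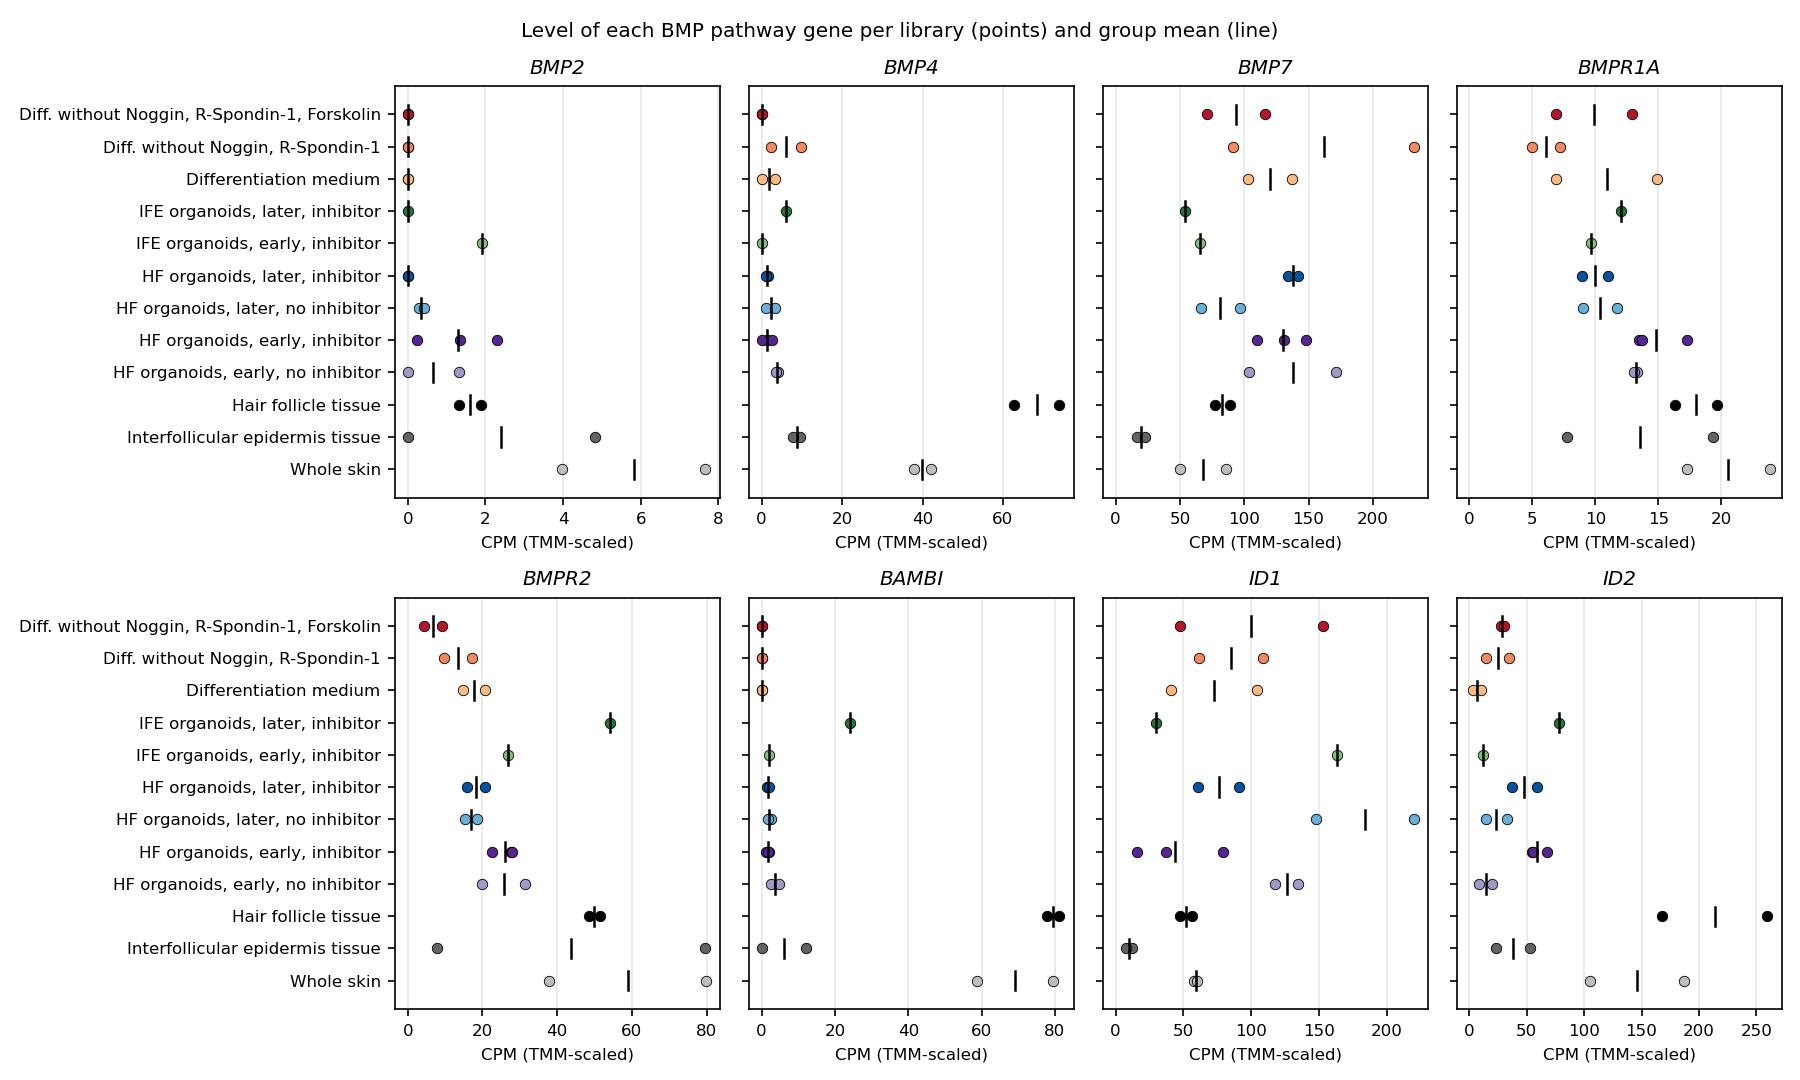
Level of each of the 8 genes in each library, in CPM scaled by library, by group. Each point is 1 library, the upright line is the group mean, HF stands for hair follicle and IFE for interfollicular epidermis. The scale of each panel is its own, so panels compare groups and not genes. BMP4 and BAMBI are high in hair follicle and whole skin libraries and low in follicle organoids, BMP7 is present in every group, and ID1 and ID2 lie in opposite order in follicle organoids with and without the Tgf-beta inhibitor.

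Among the ligands, BMP7 was detected in every library, BMP4 was highest in follicle and whole skin RNA, and BMP2 was barely detected. BMP2, which induces bone and cartilage and is also made in follicles of the mouse, had 33 counts in all, spread over 12 of the 23 libraries. Its highest level was 7.66 CPM, in a whole skin library, followed by 4.83 CPM in an interfollicular epidermis library on 2 counts, and all 6 libraries in differentiation media were at 0. BMP2 did not pass the filter on low counts and was not tested. The other 7 genes passed and were tested in each comparison.

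Hair follicle tissue carried more BMP4, BMP7, BAMBI and ID2 RNA than interfollicular epidermis. With edgeR's quasi-likelihood test and Benjamini-Hochberg adjustment over all genes, 4 of the 7 tested genes were higher in the follicle and none was lower. Over all 9888 genes tested, 2.79% passed in either direction and 2.05% were higher. The median log2 change of the 7 genes was 2.25, against 0.21 for all genes tested. Of the 27 tested genes of a wider BMP list, described below, 1 was called, FSTL1 (1.81, adjusted p = 0.0245, edgeR). The median log2 change of that list was 0.08, so the higher levels did not extend to the list as a whole.

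BMP4, a ligand of the dermal papilla and follicle in the mouse, stood at 62.8 and 74.0 CPM in hair follicles and at 9.65 and 7.71 CPM in interfollicular epidermis. Its log2 change was 2.90 ± 0.75 (SE, n = 2 each, adjusted p = 0.0382, edgeR). BMP7, a ligand made in many epithelia, stood at 89.0 and 77.1 CPM in hair follicles and at 16.9 and 23.1 CPM in interfollicular epidermis, a log2 change of 2.13 ± 0.57 (SE, adjusted p = 0.0441, edgeR). For neither ligand did the ranges of the tissues overlap, and both follicle libraries were several-fold above both epidermis libraries. How many of all genes tested lacked overlap was not counted, here or in the comparisons below. A lack of overlap is therefore a description only.

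BAMBI resembles a type I receptor without a kinase and dampens BMP and Tgf-beta signals, and its RNA is itself raised by these signals in other systems. It stood at 81.2 and 77.8 CPM in hair follicles and at 12.1 and 0 CPM in interfollicular epidermis, where the 0 is in the shallowest library, in which 3 counts stand at 23.1 CPM on this scale. The log2 change was 3.16 ± 0.60 (SE, adjusted p = 0.00599, edgeR). ID2, a protein that pairs with transcription factors of the E-protein class and keeps them off DNA, stood at 167.6 and 259.6 CPM in hair follicles and at 53.1 and 23.1 CPM in interfollicular epidermis, a log2 change of 2.33 ± 0.55 (SE, adjusted p = 0.0208, edgeR). The ranges of the tissues did not overlap for BAMBI or ID2.

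ID1, a close relative of ID2 with the same mode of action, was also apart in the tissues, with 47.1 and 56.4 CPM in hair follicles and 12.1 and 7.71 CPM in interfollicular epidermis. It did not pass the test (log2 change 2.25, 95% interval 0.51 to 3.997, adjusted p = 0.173, edgeR). The receptor genes did not pass either. BMPR1A, a type I receptor, had a log2 change of 0.16 (95% interval -0.98 to 1.29) and BMPR2, a type II receptor for BMPs, one of -0.10 (95% interval -1.17 to 0.97). BMPR2 stood at 79.6 and 7.71 CPM in the 2 epidermis libraries, so its own spread there exceeded the distance between the tissues. The lower value is 1 count in the shallowest library, so counting error may account for part of that spread.

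The epidermis side rests on few counts over both libraries, 5 each for BMP4 and BAMBI, 6 for ID1, 9 for BMPR1A, 10 for BMP7, 25 for ID2 and 34 for BMPR2. All 5 BAMBI counts lie in the first epidermis library. A fit without that library sets follicles against 0 counts in the shallowest library, which leaves the size of the BAMBI change unset. Over all alternatives the BAMBI log2 change ran from 2.73 to 9.58. BAMBI kept its call when any of the 4 libraries was left out, while BMP4 lost it with each (adjusted p 0.0983 to 0.352), BMP7 lost it with each (0.114 to 0.410), and ID2 kept it only without the first follicle library (0.0328, otherwise 0.107 to 0.182). Fibroblast markers (1295 to 3736 CPM in epidermis) and hair markers moved with these genes: 12 of 13 hair shaft and root sheath genes are in the files, and their summed level was 9106 to 11044 CPM in hair follicles and 123 to 874 CPM in epidermis, with KRT71 at 0 in epidermis. Their part in the result was not tested.

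No difference between hair follicles and whole skin passed the test. Between hair follicles and whole skin, 0 of 9888 genes were called (0%) by edgeR, DESeq2 or limma-voom, and 144 genes, none of them of the BMP set, had an unadjusted p under 0.05 in edgeR. BMP4 was 62.8 and 74.0 CPM in follicles and 42.2 and 37.8 CPM in whole skin, with a log2 change of 0.77 (95% interval -0.28 to 1.81). The 6 other log2 changes lay between -0.29 (BMPR2) and 0.57 (ID2).

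Interfollicular epidermis was lower than whole skin in BAMBI, the one gene of the 7 called, beside 1.56% of all genes. BAMBI stood at 12.1 and 0 CPM in interfollicular epidermis and at 58.8 and 79.6 CPM in whole skin (log2 change -2.94 ± 0.61 SE, adjusted p = 0.0165, edgeR). The call was lost without the second whole skin library (-2.75, adjusted p = 0.0922) or the second epidermis library (-2.51, adjusted p = 0.0746). ID1, BMP4, BMP7 and ID2 had log2 changes of -2.43, -2.13, -1.87 and -1.75, and adjusted p-values of 0.127 to 0.228 (edgeR). These comparisons share tissue libraries with the comparison of follicle and epidermis.

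BMP4, BAMBI, ID2 and BMPR2 fell in follicle organoids in expansion medium relative to follicle tissue, while BMP7, BMPR1A and ID1 did not pass the test. These 4 of 7 stand beside 28% of all genes called in either direction and 19% called lower. The median log2 change of the 7 genes was -1.21, against 0.00 for all genes.

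BMP4 ran from 0 to 4.0 CPM over the 9 follicle organoid libraries, with a median of 1.47 CPM, and stood at 62.8 and 74.0 CPM in follicle tissue. Its log2 change was -5.04 ± 0.40 (SE, adjusted p = 3.22e-09, edgeR). BAMBI ran from 1.15 to 4.80 CPM in the organoids, with a median of 1.99 CPM, against 81.2 and 77.8 CPM in follicle tissue, and its log2 change was -5.07 ± 0.32 (SE, adjusted p = 4.09e-10, edgeR). No organoid library came near the tissue for either gene.

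ID2 ran from 8.72 to 67.3 CPM in follicle organoids, with a median of 36.8 CPM, and was 167.6 and 259.6 CPM in follicle tissue (log2 change -2.81 ± 0.32 SE, adjusted p = 5.34e-07, edgeR). BMPR2 ran from 15.4 to 31.4 CPM in the organoids, with a median of 20.6 CPM, and was 48.4 and 51.4 CPM in tissue (-1.21 ± 0.35 SE, adjusted p = 0.0124, edgeR). Both genes were below both tissue libraries in all 9 organoid libraries. The BMPR2 call was lost without the first follicle library (-1.25, adjusted p = 0.0716) or the second (-1.16, adjusted p = 0.147), while BMP4, BAMBI and ID2 kept theirs with any of the 11 libraries left out.

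BMP7 ran from 66.5 to 171.4 CPM in follicle organoids, with a median of 131.2 CPM, and was 89.0 and 77.1 CPM in follicle tissue, so the ranges overlapped. Its log2 change was 0.52 with a 95% interval of -0.18 to 1.23. ID1 ran from 16.1 to 219.6 CPM in the organoids, with a median of 90.7 CPM, and was 47.1 and 56.4 CPM in tissue (0.85, 95% interval -0.12 to 1.81). The pool is uneven for ID1, with 16.1 to 90.7 CPM in the 5 libraries with the Tgf-beta inhibitor and 117.3 to 219.6 CPM in the 4 without it. BMPR1A had a log2 change of -0.57 (95% interval -1.25 to 0.11). Beside the 4 genes that fell, the summed fibroblast markers were 68.8 to 522.6 CPM in these organoids and 4589 to 7602 CPM in follicle tissue. The hair markers were 89.2 to 141.2 CPM in the organoids and 9106 to 11044 CPM in tissue. Smooth muscle markers (30.7 to 122.7 CPM, against 1561 to 1956 CPM) and melanocyte, endothelial, immune and Schwann markers were also lower in the organoids. Basal keratinocyte markers were higher, and adipocyte and keratinocyte differentiation markers overlapped. The part of these markers in the result was not tested.

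**Figure D2:**
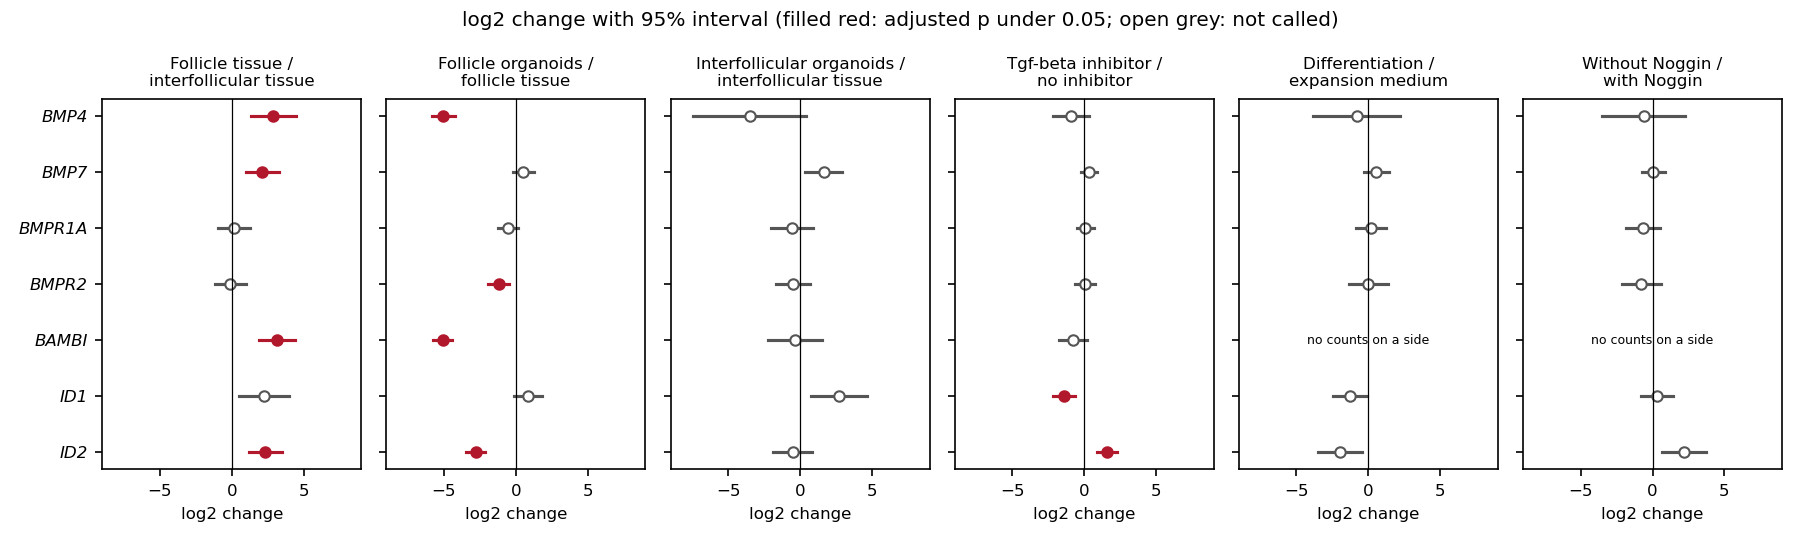
Log2 change of each of the 7 tested genes in the comparisons named in the panels, as the first group minus the second, with 95% intervals from the edgeR fit. Filled points passed an adjusted p of 0.05 and open points did not. BAMBI is left out where a side had no counts. The called genes in follicle organoids against follicle tissue lie left of 0, and with the Tgf-beta inhibitor ID2 lies right and ID1 left of 0.

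The wider pathway was read from a list of 62 further BMP genes, of which 48 are in the files and 27 were tested. In follicle organoids against follicle tissue 15 of the 27 fell and 1 rose, beside 28% of all genes called. The list's median log2 change was -1.25. The falls took in the ligand BMP6, all 4 tested receptors and coreceptors (ACVR1, ACVR2A, ENG and RGMA), 4 of 7 secreted antagonists and binders, 1 of 3 SMADs, 1 of 6 regulators, and 4 of 6 targets and partners.

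Of these, BMP6, a ligand of the BMP7 subgroup, averaged 0.257 CPM in the organoids and 12.4 CPM in follicle tissue (log2 change -5.05, adjusted p = 3.51e-05, edgeR). TCF4, an E protein of the kind that ID proteins bind and a gene also expressed in fibroblasts, had a log2 change of -5.52 (adjusted p = 1.41e-08, edgeR). ID4, a further ID family member, averaged 9.69 CPM in the organoids and 93.2 CPM in follicle tissue, a log2 change of -3.82 (adjusted p = 1.46e-05, edgeR). FSTL1, a secreted protein that binds BMP4, had a log2 change of -2.19, and CRIM1, a membrane protein that binds BMPs, one of -1.76. The type II receptor ACVR2A had -1.51 and the E protein TCF12 -1.46. PMEPA1, which restrains Tgf-beta signalling, had -2.73, but its mean was 2.17 CPM in organoids with the Tgf-beta inhibitor and 32.5 CPM in those without it, against 55.4 CPM in follicle tissue. DLX5, a homeobox target of BMPs in bone, was the single gene to rise (2.28, adjusted p = 0.033, edgeR) and is named here after its value was seen. It averaged 21.8 CPM in organoids with the inhibitor and 3.90 CPM in those without it, against 1.94 CPM in follicle tissue, and the organoid and tissue libraries overlapped.

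**Figure D3:**
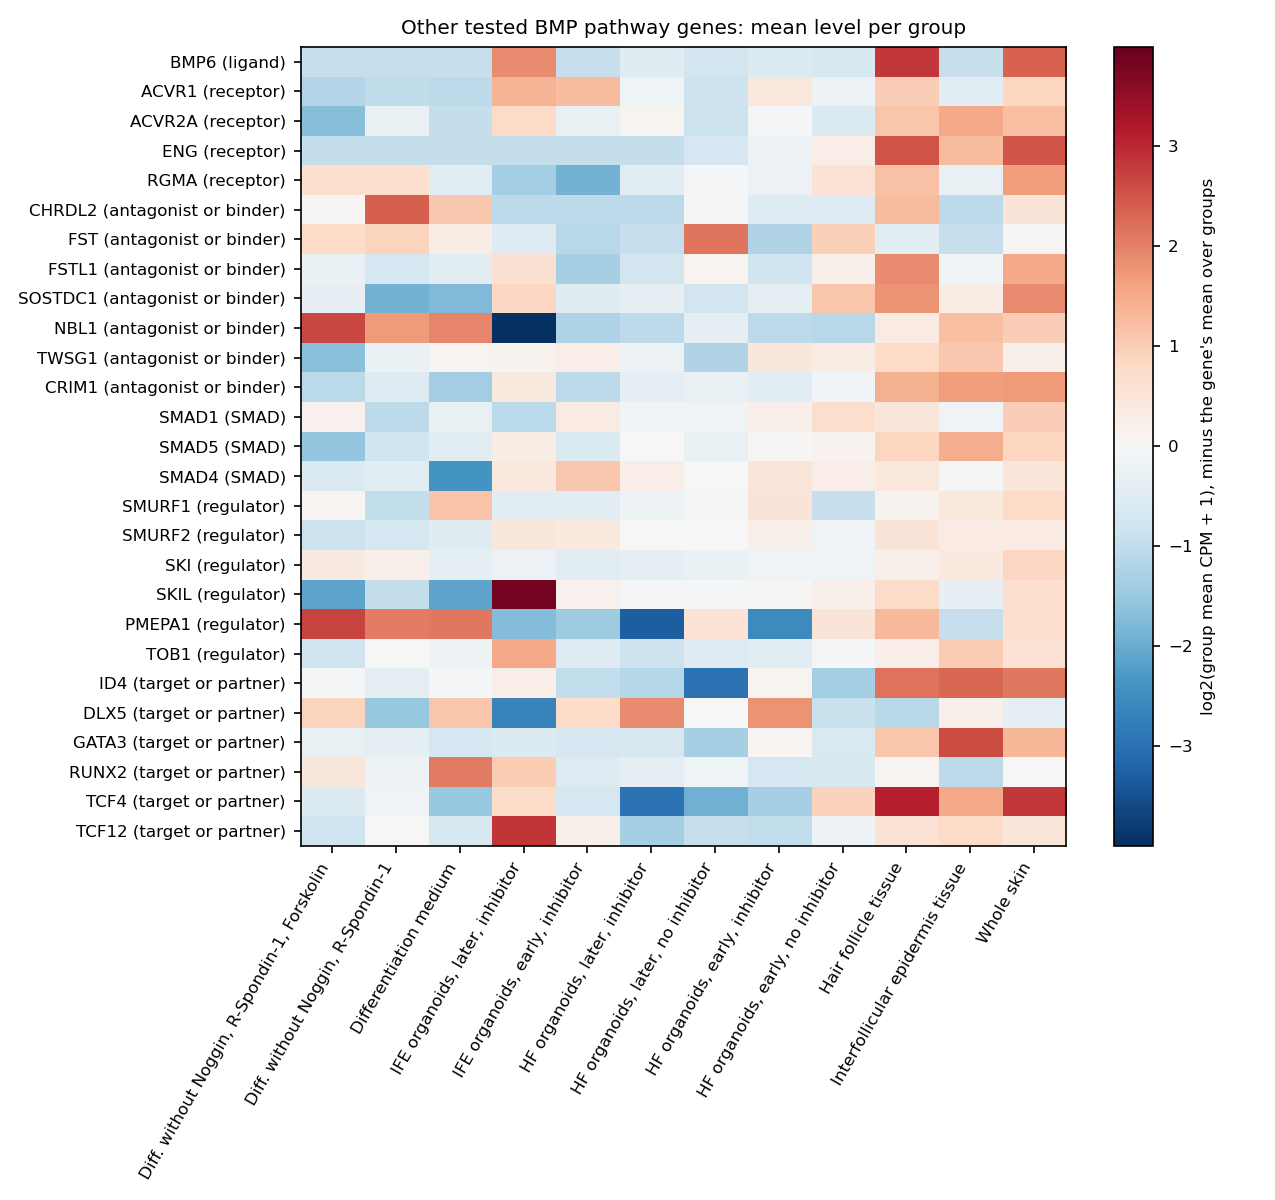
Group mean levels of the 27 tested genes of the wider BMP list, as log2(CPM + 1) minus each gene's own mean over the 12 groups, so that colours compare groups within a row and not genes. HF stands for hair follicle and IFE for interfollicular epidermis. BMP6, ENG and TCF4 are highest in follicle and whole skin tissue, and PMEPA1 is lowest in follicle organoids with the inhibitor.

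The Tgf-beta inhibitor moved the ID genes in opposite directions in follicle organoids. With both passages pooled, ID2 rose and ID1 fell, 2 of 7 genes beside 2.68% of all genes called. The ligands and receptors did not pass the test. The 12 fibroblast markers moved with the inhibitor in early organoids, where their sum was 100.2 to 151.9 CPM with it and 263.8 to 522.6 CPM without it. PDGFRA was at 0 in both early libraries without it. In later organoids the sum was 68.8 to 78.0 CPM with it and 71.8 to 90.7 CPM without it. Smooth muscle, adipocyte and endothelial markers were also lower with the inhibitor in early organoids and overlapped in later ones. The part of these markers in the result was not tested.

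ID2 stood at 67.3, 54.1 and 55.4 CPM in early organoids with the inhibitor and at 19.998 and 8.72 CPM in early organoids without it. In later organoids it stood at 36.8 and 58.8 CPM with the inhibitor and at 32.4 and 14.2 CPM without it. All 5 libraries with the inhibitor were above all 4 without it. The pooled log2 change was 1.58 ± 0.35 (SE, adjusted p = 0.0144, edgeR).

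ID1 stood at 16.1, 78.8 and 36.9 CPM in early organoids with the inhibitor and at 134.7 and 117.3 CPM in early organoids without it. In later organoids it stood at 61.1 and 90.7 CPM with the inhibitor and at 147.6 and 219.6 CPM without it. All 5 libraries with the inhibitor were below all 4 without it. The 3 early ones were themselves far apart. The pooled log2 change was -1.40 ± 0.37 (SE, adjusted p = 0.0454, edgeR).

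The calls differ in how far they rest on single libraries. ID2 kept its call in 6 of 9 fits that left out 1 library and lost it without the second early library lacking the inhibitor (1.28, adjusted p = 0.133), the second later library with it (1.40, 0.0833) or the second later library lacking it (1.35, 0.0843). ID1 kept its call only without the second early library with the inhibitor (-1.74, 0.0067), and in the other 8 fits its log2 change was -1.55 to -1.21 with adjusted p-values of 0.0616 to 0.264.

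Within passages the directions were the same. In early organoids 1 of 7 genes was called, beside 1.3% of all genes: ID2 rose by 2.15 ± 0.50 on the log2 scale (SE, adjusted p = 0.036, edgeR), a call kept in 1 of 5 fits that left out a library (1.55 to 2.72, adjusted p 0.0381 to 0.401). ID1 had a log2 change of -1.51 there (adjusted p = 0.15, edgeR). In later organoids none of the 7 was called by edgeR, DESeq2 or limma-voom, beside 0.314% of all genes. ID1 and ID2 were the 2 of the 7 with an unadjusted p under 0.05 in edgeR, beside 541 of all 9888 genes. The values were -1.28 (95% interval -2.42 to -0.14, adjusted p = 0.828) for ID1 and 1.01 (95% interval 0.01 to 2.01, adjusted p = 0.909) for ID2. The difference between the passages in the inhibitor's effect was tested as an interaction, which called 0 of 9888 genes in edgeR (0%), 1 in DESeq2 and 0 in limma-voom. In edgeR 267 genes, none of the 7, had an unadjusted p under 0.05. The interaction was -1.14 for ID2 (95% interval -2.57 to 0.28) and 0.24 for ID1 (95% interval -1.29 to 1.76).

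ID2 was also set against ID1 within each library, as the number of ID2 counts for every 100 ID1 counts. This ratio does not depend on library scaling. It was worked out after the values were seen and carries no test, and since it is not per length, only its differences between libraries are read. The ratio was 417, 68.6 and 150 in early follicle organoids with the inhibitor, against 14.9 and 7.43 in early ones without it. It was 60.2 and 64.8 in later follicle organoids with the inhibitor, against 21.9 and 6.46 in later ones without it. Every follicle organoid library with the inhibitor was above every one without it. That separation follows from the levels of ID1 and ID2 given above and adds no support to them. Tissue lay higher than the organoids without the inhibitor, with 356 and 460 in hair follicles, 440 and 300 in interfollicular epidermis and 180 and 313 in whole skin.

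**Figure D4:**
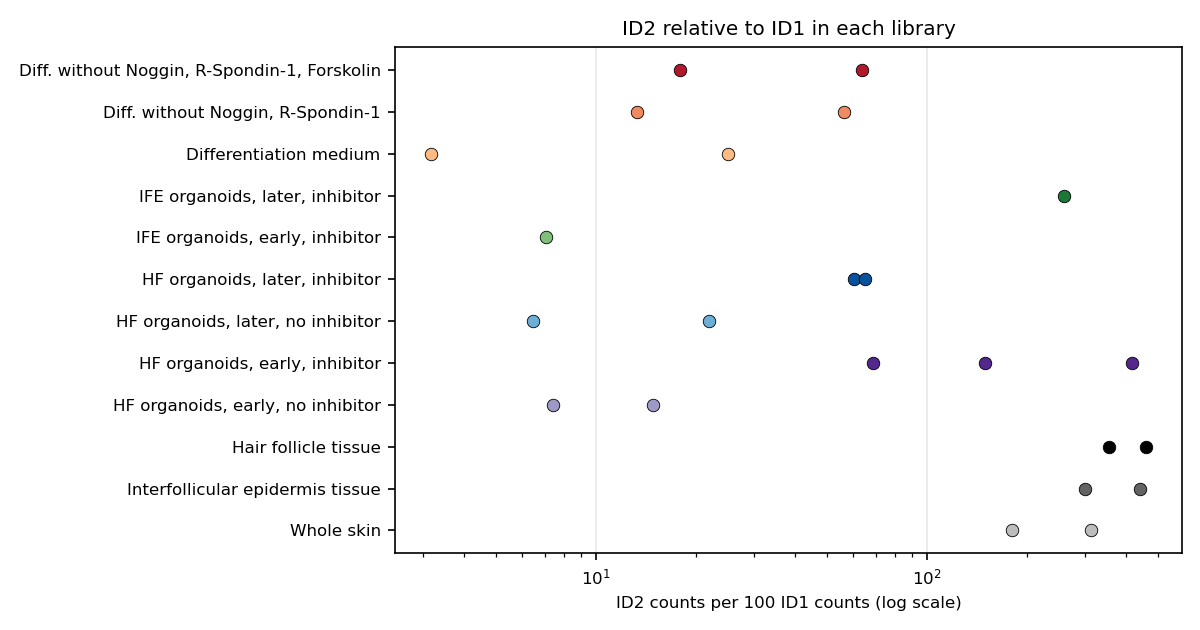
ID2 counts per 100 ID1 counts in each library, on a log axis, with groups down the page. Each point is 1 library, with HF for hair follicle and IFE for interfollicular epidermis. All 6 tissue libraries lie at 180 or above, follicle organoids with the Tgf-beta inhibitor at 60.2 to 417, and those without it at 6.46 to 21.9.

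BMP7 stood at 133.9 and 141.5 CPM in later organoids with the inhibitor and at 66.5 and 96.5 CPM in later organoids without it, with no overlap. It was not called there (log2 change 0.76, 95% interval -0.09 to 1.61) nor with passages pooled (0.33, 95% interval -0.24 to 0.91). BMPR1A and BMPR2 had pooled log2 changes of 0.07 and 0.04, with 95% intervals of -0.53 to 0.67 and -0.64 to 0.72. BMP4 and BAMBI were under 5 CPM in all 9 of these libraries.

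In the wider list, 3 of 27 genes were called with the inhibitor, beside 2.68% of all genes. PMEPA1, a known Tgf-beta target, averaged 2.17 CPM with it and 32.5 CPM without it (log2 change -3.94, adjusted p = 0.000147, edgeR). FST, which encodes follistatin, an activin antagonist that also binds BMPs, averaged 16.1 CPM with it and 111.3 CPM without it (-2.65, adjusted p = 0.00117, edgeR). DLX5 rose, with 21.8 CPM with it and 3.90 CPM without it (2.59, adjusted p = 0.00315, edgeR). So ID2 and DLX5 rose while ID1, PMEPA1 and FST fell.

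Between later and early follicle organoids none of the 7 genes was called by edgeR, DESeq2 or limma-voom, and none had an unadjusted p under 0.05, beside 0.354% of all genes called. ID1 had a log2 change of 0.66 (95% interval -0.10 to 1.43), ID2 of 0.26 (-0.44 to 0.97) and BMP7 of -0.34 (-0.92 to 0.23). BMPR1A and BMPR2 had -0.45 (-1.05 to 0.15) and -0.56 (-1.25 to 0.12). In the wider list TCF4 fell, with 0.524 CPM in later and 7.88 CPM in early organoids (-4.04, adjusted p = 0.0401, edgeR).

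Organoids from interfollicular epidermis are known from 1 early and 1 later library, and these differed widely. ID1 stood at 163.5 CPM in the early library and at 30.1 CPM in the later one, on 85 and 5 counts. ID2 stood at 11.5 CPM in the early and 78.2 CPM in the later one, on 6 and 13 counts. The ratio of ID2 to 100 ID1 counts was 7.06 in the early library and 260 in the later one, although both had the inhibitor. BAMBI stood at 1.92 CPM in the early and 24.0 CPM in the later library, which had 1 and 4 counts. The later library also had the higher summed fibroblast markers (824 CPM, against 177 CPM early) and hair markers (1467 CPM, against 238 CPM early). The other marker lists were higher there too, except keratinocyte differentiation (3655 CPM, against 5285 CPM early). The part of these markers in these values was not tested.

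Against interfollicular tissue, edgeR called none of the 7 genes in these organoids, beside 11.3% of all genes. Beside 2658 of all 9888 genes, 2 of the 7 had an unadjusted p under 0.05. ID1 had 163.5 and 30.1 CPM in the organoids and 12.1 and 7.71 CPM in tissue (log2 change 2.68, 95% interval 0.73 to 4.64, adjusted p = 0.0696), and BMP7 had 65.4 and 54.1 CPM in the organoids and 16.9 and 23.1 CPM in tissue (1.66, 95% interval 0.37 to 2.94, adjusted p = 0.0875). For both genes the organoids lay above the tissue without overlap, on few counts. These were 85 and 5 against 5 and 1 for ID1, and 34 and 9 against 7 and 3 for BMP7. DESeq2 called 1 gene and limma-voom called 0. Without the later organoid library ID1 was called (3.90, adjusted p = 0.0116, edgeR).

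Against follicle organoids with the inhibitor, edgeR called none of the 7 genes either, beside 6.37% of all genes. Beside 1612 of all 9888 genes, 1 of the 7 had an unadjusted p under 0.05. That gene was BMP7, at 65.4 and 54.1 CPM in interfollicular organoids and 110.3 to 148 CPM over the 5 follicle organoid libraries (-1.17, 95% interval -2.04 to -0.30, adjusted p = 0.125). DESeq2 called 0 genes and limma-voom 1. Without the early interfollicular library BAMBI was called (3.74, adjusted p = 0.0149, edgeR), on the 4 counts of the later library. These p-values assume that the lone library of each group varies like the other groups.

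Complete differentiation medium was compared with expansion medium without the inhibitor at the same passages. The differentiation files list 18113 entries and all other files 20448. The medium and any difference in how the files were made therefore cannot be told apart, here or in later comparisons with expansion medium. None of the 7 genes was called by edgeR, DESeq2 or limma-voom, beside 3.34% of all 9732 genes tested. Beside 1831 of all genes, 2 of the 7 had an unadjusted p under 0.05 in edgeR. These were ID2, at 3.31 and 10.3 CPM in differentiation medium and 32.4 and 14.2 CPM in expansion medium, and ID1, at 104.4 and 41.1 CPM in differentiation medium and 147.6 and 219.6 CPM in expansion medium. Both genes were lower in differentiation medium without overlap between libraries, but the tests did not pass (ID2 -2.00, 95% interval -3.53 to -0.47, adjusted p = 0.133, and ID1 -1.28, 95% interval -2.46 to -0.09, adjusted p = 0.222). BMP7 stood at 102.7 and 137.0 CPM in differentiation medium and 66.5 and 96.5 CPM in expansion medium (0.55, 95% interval -0.33 to 1.42).

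With later organoids on the Tgf-beta inhibitor as the expansion medium instead, ID2 was called (-3.01, adjusted p = 0.0211, edgeR) and ID1 had a log2 change of 0.00. BAMBI had 0 counts in all 6 libraries of differentiation media. The limit that 3 counts set over the 2 libraries of complete medium was 3.05 CPM on plain totals, above the 2.10 CPM that BAMBI averaged in expansion medium, so a fall was not detectable at this depth. NBL1, a secreted BMP antagonist of the DAN family, was the one gene of the wider list called, with 60.1 CPM in differentiation medium and 11.2 CPM in expansion medium (2.33, adjusted p = 0.0362, edgeR).

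The media without Noggin set organoids that lacked an added BMP antagonist against those in complete differentiation medium. All 4 libraries without Noggin also lacked R-Spondin-1, so these omissions cannot be told apart. No gene of the 9732 was called (0%) in either medium without Noggin, nor with both of these media pooled, by edgeR, DESeq2 or limma-voom. In edgeR 260 genes had an unadjusted p under 0.05 without Noggin and R-Spondin-1, 376 without Noggin, R-Spondin-1 and Forskolin, and 356 with these media pooled. In each case 1 of the 7 genes was among them, which was ID2.

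ID2 stood at 27.4 and 30.1 CPM without Noggin, R-Spondin-1 and Forskolin, at 14.5 and 34.6 CPM without Noggin and R-Spondin-1, and at 3.31 and 10.3 CPM in complete differentiation medium. The counts behind these levels were 12 and 7, 6 and 14, and 2 and 3. All 4 libraries without Noggin were above both complete ones. The log2 change was 2.17 (95% interval 0.64 to 3.70, adjusted p = 1.00, edgeR) with the media without Noggin pooled, 2.28 (0.58 to 3.97) without all 3 factors and 2.06 (0.37 to 3.74) without Noggin and R-Spondin-1. These contrasts share the complete-medium libraries. Against expansion medium without the inhibitor, where ID2 was 32.4 and 14.2 CPM, the media without Noggin had a log2 change of 0.16 (95% interval -0.81 to 1.14).

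ID1 stood at 152.9 and 47.3 CPM without Noggin, R-Spondin-1 and Forskolin, at 108.4 and 61.7 CPM without Noggin and R-Spondin-1, and at 104.4 and 41.1 CPM in complete medium. The media overlapped. In each of the 3 media the library numbered 1 was above the library numbered 2. The pooled log2 change was 0.32 (95% interval -0.77 to 1.40). The ratio of ID2 to 100 ID1 counts was 17.9 and 63.6 without all 3 factors, 13.3 and 56.0 without Noggin and R-Spondin-1, and 3.17 and 25.0 in complete medium. These ranges overlapped, while among libraries of the same number complete medium was the lowest of the 3 media for both the ratio and ID1. The labels do not say that a number marks a shared culture or dog. Over 2000 genes, same-numbered libraries of these media deviated together (r 0.552 to 0.691). The tests here are unpaired, and a fit paired within these media was not run.

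The ligands and receptors were also not called. BMP7 stood at 70.7 and 116.0 CPM without all 3 factors, at 91.5 and 232.1 CPM without Noggin and R-Spondin-1, and at 102.7 and 137.0 CPM in complete medium, with a pooled log2 change of 0.03 (95% interval -0.76 to 0.83). BMPR2 stood at 9.13 and 4.30 CPM, 9.63 and 17.3 CPM, and 14.9 and 20.5 CPM in the same order of media (-0.78, 95% interval -2.14 to 0.58). BMPR1A had a pooled log2 change of -0.66 (95% interval -1.84 to 0.51). BMP4 had 0 to 9.88 CPM on at most 4 counts a library. No gene of the wider list was called.

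With Forskolin left out as well, against the medium that lacked Noggin and R-Spondin-1 only, no gene was called (0%) by edgeR, DESeq2 or limma-voom, and 330 genes had an unadjusted p under 0.05 in edgeR. Of the 7 BMP genes only BMP4 was among these, with 0 counts in both libraries without Forskolin and 1 and 4 counts in the libraries with it. The limit that 3 counts set without Forskolin was 4.26 CPM, against a mean of 6.14 CPM with it. The counts therefore show no more than a 1.44-fold fall. ID2 had a log2 change of 0.22 (95% interval -1.13 to 1.57) and ID1 of 0.29 (-0.95 to 1.53). Against expansion medium without the inhibitor, the media without Noggin had none of the 7 genes called by edgeR, DESeq2 or limma-voom, beside 11.1% of all genes. BAMBI was the 1 gene of the 7 with an unadjusted p under 0.05 in edgeR, beside 2721 of all 9732 genes. BAMBI had 0 counts in the media without Noggin, where 3 counts set a limit of 1.95 CPM on plain totals. Its mean in expansion medium was 2.10 CPM, so the counts show no more than a 1.08-fold fall. In the wider list NBL1 (2.59, adjusted p = 0.00433) and PMEPA1 (1.83, adjusted p = 0.02, edgeR) were higher than in expansion medium.

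Over all 12 groups, the order of mean levels set the genes apart. BMP4, BAMBI and ID2 were highest in hair follicles (68.4 ± 7.89, 79.5 ± 2.41 and 213.6 ± 65.1 CPM, SD, n = 2), but whole skin, the neighbour in that order, overlapped with hair follicles for BAMBI (69.2 ± 14.7 CPM, SD, n = 2) and for ID2 (145.9 ± 58.2 CPM, SD, n = 2). BMP7 was highest without Noggin and R-Spondin-1 (161.8 ± 99.4 CPM, SD, n = 2), where its spread took in the means of 6 other groups of follicle organoids, and lowest in interfollicular epidermis (20.01 ± 4.41 CPM). ID1 was highest in later follicle organoids without the inhibitor (183.6 ± 50.9 CPM, SD, n = 2), a spread that takes in the early interfollicular organoid library at 163.5 CPM and a library without all 3 factors at 152.9 CPM, and lowest in interfollicular epidermis (9.89 ± 3.08 CPM). BMPR1A ran from 6.08 ± 1.62 CPM without Noggin and R-Spondin-1 to 20.6 ± 4.68 CPM in whole skin (SD, n = 2 each).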

How the data were processed

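Per the labels, RNA was prepared with a modified CEL-seq2 protocol and sequenced on an Illumina NextSeq500. Per the submitters' processing notes, the authors used the aligner BWA (0.6.2-r126) with the genome build CanFam3.1. The annotation, the counter and any collapsing of molecular barcodes were not given in the sources used here. The deposited values are counts per gene in which 4.91 to 10.6% of lines hold a fraction, and they were handled like expected counts and rounded to whole numbers. The authors' step behind the fractions is not given. Lines that name no gene, 0.461 to 2.16% of the counts per library, were dropped.

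The 17 tissue and expansion files list 20448 entries and the 6 differentiation files 18113, with 17136 in all files. ID2 was matched through its gene ID, and 436 of 6691 locus names received a symbol in this way. No coordinates or sequences were used.

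Counts were tested with edgeR 4.0.16 in R 4.3.3. The default filter on the 12 groups left 9888 genes, or 9732 in comparisons with differentiation files. TMM scaling, 12 group means in 1 quasi-likelihood fit (11 residual degrees of freedom, common dispersion 0.0986) and Benjamini-Hochberg adjustment were used, with a call at an adjusted p under 0.05. Pooled groups enter as the mean of their log2 means. The SE is the log2 change divided by the square root of F. The procedure was also run on simulated counts in which only genes above a set mean level were changed. That run does not cover genes resting on few counts. There were 17 comparisons. Alternatives were RLE factors, library totals, totals without mitochondrial genes, no filter, a stricter filter (10 CPM in 2 libraries), unrounded counts, only the groups compared, only entries in all files, DESeq2 1.42.0, limma-voom (limma 3.58.1), a replicate block, the expansion medium with inhibitor, and leaving out each library. Leaving out each interfollicular organoid library was added after the data were seen.

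The members, the wider BMP list and the marker lists were chosen with earlier results of these data known. The 8 members are named wherever a side reaches 5 CPM, and up to 8 called genes of the wider list by smallest p. CPM values use TMM-scaled totals, and limits for 0 counts use plain totals.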

Additional observations from a re-analysis of the deposited data

How the results depend on the processing

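For the 32 BMP gene results with a call under some setting, an unadjusted p under 0.05, or ID1 or ID2 in the pooled Noggin comparison, 507 alternatives were run, of which 447 kept direction and call, 46 lost the call, 11 gained one and 3 changed sign. Counts of called genes refer to the 7 tested BMP genes. Hair follicle against interfollicular tissue had 4 called, but 2 with RLE factors, DESeq2 or limma-voom, 1 with library totals, and 1 to 2 with a library left out. The median of all genes there was 0.21 with TMM and -0.10 with totals. Interfollicular tissue against whole skin had 1, but 2 without a filter, 0 with only the groups compared, and 0 to 1 with a library left out. Interfollicular organoids against their tissue had 0, but 1 without a filter or with DESeq2, and 0 to 1 with a library left out. The median of all genes there was -0.14 with TMM and -0.70 with totals. Interfollicular against follicle organoids had 0, but 1 with limma-voom and 0 to 1 with a library left out. The inhibitor comparison had 2, but 1 with only the groups compared and 0 to 2 with a library left out. At early passage it had 1, but 0 with library totals or only the groups compared, 2 without a filter, and 0 to 2 with a library left out. Complete differentiation medium against expansion medium had 0, but 1 with the inhibitor cultures as expansion medium, where ID1 moved from below 0 to 0.00046. ID1 in media without Noggin against complete medium ran from -0.26 to 1.197 with a library left out. The causes were not tested.

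Replicate numbers are shared between groups, but same-numbered libraries correlated over 0.1 in 12 of 45 pairs of groups and under -0.1 in 13. The numbers were therefore not taken as pairs over all groups. Most of these pairs join unlike groups and cannot decide on pairing within the differentiation media, which correlated at 0.552 to 0.691. A fit paired within these media was not run, only the block over all groups. With the replicate block 1 gene was called with the inhibitor (206 of all genes, against 265) and 0 at early passage (67 of all genes, against 129), and hair follicle against interfollicular tissue had 3.

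The differentiation, interfollicular tissue and interfollicular organoid libraries limit what can be seen, since several BMP genes there rest on 5 counts or fewer.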

Other observations

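For each of the 7 tested BMP genes, the genes with the most similar pattern over the 12 group means were looked up among 8574 genes. BAMBI was most like CTSE (Pearson r 0.99), APOC1 (0.99) and ADIPOQ (0.99), an adipocyte hormone. BMP4 was most like STON1 (0.96), RAMP2 (0.96) and ZSCAN18 (0.96). BMPR2 was most like PTCH1 (0.95), the Hedgehog receptor, LGR4 (0.94), an R-spondin receptor, and H1F0 (0.94). ID2 was most like TMEM2 (0.92), DEPTOR (0.91) and JPH4 (0.90), and ID1 like DCPS (0.91), H2AFV (0.91) and EXOSC6 (0.91). BMP7 was most like MRPL40 (0.92), TRIM27 (0.92) and NDUFB9 (0.92), and BMPR1A like KLHL24 (0.94), WDR59 (0.93) and GK5 (0.91). These are descriptions over 12 groups, of which the 3 tissues and 9 organoid groups lie apart, and carry no test.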
